A study of Mus musculus with 8 samples.

Results

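Interferon-stimulated genes are the genes that cells switch on when an interferon binds its receptor, and 34 of them were followed here by symbol in mouse CD8 T cells. Of the 34, 33 had a row among the 32285 genes of the count matrices, and Mx1 was not analysed here. The T cells were activated, came from 3 donor mice and had shared a culture with bone marrow stromal cells (BMSCs) whose mitochondria carried dsRed. MitoPositive cells were those sorted with dsRed, and MitoNegative cells those sorted without it. One set of cells was sequenced directly after the sort (d0, here called culture). The other set was injected into B6 mice bearing B16KVP melanoma and was taken back from tumor and spleen at d7, where both names give the state before transfer. The 6 groups were MitoPositive tumor, MitoNegative tumor, MitoPositive spleen, MitoNegative spleen, MitoPositive culture and MitoNegative culture cells, with 1 sample per donor in each, so 18 hashtagged samples in 4 droplet libraries. At d7 the arms of a donor had been given to different recipient mice, and tumor and spleen cells of an arm came from the same recipients. An effect of the recipients and one of the arm can therefore not be told apart at d7.

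Type I interferons act through the receptor chains Ifnar1 and Ifnar2 and the kinases Jak1 and Tyk2, and a complex that includes Stat2 and Irf9 then binds the interferon-stimulated response element (ISRE) in promoters. Interferon gamma, which CD8 T cells themselves release, acts through Ifngr1 and Ifngr2 and on promoters through another site, GAS. In T cells the genes switched on this way include RNA sensors, RNA-degrading enzymes, the ubiquitin-like protein Isg15 and feedback inhibitors such as Usp18.

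Promoter sequences are shown for 8 members, those of the ISRE-bearing kind that the comparisons below turn on and Cmpk2 as one without a match. They come from RefSeq (build GRCm38.p6, the build of mm10), which gave a window of 250 bases before to 50 after the start for 26 of the 33 members. Each stretch below has 160 bases, lies before the start of the gene in the GENCODE vM21 annotation, and is written 5′ to 3′ on the strand of the gene with ISRE core matches in capitals. The ISRE core searched was GAAA, then any 2 bases, then GAAA again, on either strand, so that TTTC, any 2 bases and TTTC mark a match on the other strand. The stretches were Ifit1 at chr19:34640711-34640870 on the plus strand, Ifit3 at chr19:34583363-34583522 on the plus strand, Isg15 at chr4:156200819-156200978 on the minus strand, Oas1a at chr5:120907526-120907685 on the minus strand, Oas3 at chr5:120777662-120777821 on the minus strand, Rsad2 at chr12:26456453-26456612 on the minus strand, Cxcl10 at chr5:92348953-92349112 on the minus strand and Cmpk2 at chr12:26469044-26469203 on the plus strand.
Ifit1: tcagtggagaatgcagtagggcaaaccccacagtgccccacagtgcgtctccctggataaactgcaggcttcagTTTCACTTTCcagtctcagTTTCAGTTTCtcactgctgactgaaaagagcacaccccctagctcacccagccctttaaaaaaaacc
Ifit3: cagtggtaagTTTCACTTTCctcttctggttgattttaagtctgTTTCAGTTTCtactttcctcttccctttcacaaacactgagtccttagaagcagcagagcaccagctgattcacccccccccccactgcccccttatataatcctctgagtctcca
Isg15: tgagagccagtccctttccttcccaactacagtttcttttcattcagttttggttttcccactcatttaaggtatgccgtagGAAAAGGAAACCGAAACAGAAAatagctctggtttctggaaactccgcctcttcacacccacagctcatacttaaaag
Oas1a: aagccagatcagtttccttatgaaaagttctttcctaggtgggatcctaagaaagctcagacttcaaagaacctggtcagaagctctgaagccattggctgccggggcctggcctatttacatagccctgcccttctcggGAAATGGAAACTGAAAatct
Oas3: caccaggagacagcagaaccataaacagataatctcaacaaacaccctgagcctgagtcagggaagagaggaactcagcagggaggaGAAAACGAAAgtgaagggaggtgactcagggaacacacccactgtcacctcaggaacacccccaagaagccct
Rsad2: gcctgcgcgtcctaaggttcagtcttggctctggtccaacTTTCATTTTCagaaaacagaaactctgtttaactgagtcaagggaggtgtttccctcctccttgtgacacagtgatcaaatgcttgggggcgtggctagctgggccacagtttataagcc
Cxcl10: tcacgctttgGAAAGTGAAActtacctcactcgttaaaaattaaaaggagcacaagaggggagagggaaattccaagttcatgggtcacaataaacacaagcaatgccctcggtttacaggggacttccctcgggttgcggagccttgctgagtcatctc
Cmpk2: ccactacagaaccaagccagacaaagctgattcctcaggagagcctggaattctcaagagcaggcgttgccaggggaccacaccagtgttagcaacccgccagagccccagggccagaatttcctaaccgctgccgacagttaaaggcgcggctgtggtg

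An ISRE core was present in 16 of the 26 members with a window (61.5%), against 3.49% of 27025 gene symbols. Counted from the start, Ifit1 had matches that began at positions -104 and -85, Ifit3 at -156 and -122, and its neighbour Ifit3b on chromosome 19 at -188 and -154. Isg15 carried 3 overlapping matches, which began at positions -78, -72 and -66. The GAS letters TTCNNNGAA, which read the same on both strands, were found in 3 of 26 members (11.5%), namely Isg20, Oas1a and Bst2, against 8.47% of gene symbols. In Bst2, the GAS match at position -136 overlapped an ISRE core at position -130. No ISRE core was found in the windows of Isg20, Oasl1, Oasl2, Slfn1, Ifi44, Irf7, Irf9, Xaf1, Herc6 and Cmpk2.

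The samples held 30 to 3421 cells and 323344 to 26516196 UMIs (unique molecular identifiers, each standing for 1 captured RNA molecule). In MitoNegative tumor cells of donor 1, with 30 cells, 1 UMI equalled 2.01 CPM (the UMIs of a gene scaled to a fixed total per sample), and in MitoPositive spleen cells of donor 3, with 49 cells, 1 UMI equalled 3.09 CPM. In the other 16 samples it equalled 0.0377 to 0.992 CPM. Tumor cells gave more UMIs, with 10067 to 21063.5 UMIs per median cell, against 5288 to 7307 UMIs in spleen samples and 5875 to 8599 UMIs in culture samples. The genes of the T cell receptor complex and of Cd8, which define the labelled cell type, together stood at 3260 to 3660 CPM in tumor, 4580 to 5190 CPM in spleen and 5210 to 5690 CPM in culture samples. Markers of other cells (macrophages, dendritic cells, melanoma, stroma, B cells and red cells) together stood at 50.4 to 477 CPM in tumor, 179 to 848 CPM in spleen and 25.2 to 33.8 CPM in culture samples. Between 1 and 9 barcodes were shared by any pair of libraries.

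Summed over the 33 members, the level was 1570 ± 225 CPM (SD over 3 donors, as for all CPM sums) in MitoPositive and 1800 ± 367 CPM in MitoNegative tumor cells. Spleen cells held 3440 ± 184 CPM (MitoPositive) and 4780 ± 1370 CPM (MitoNegative), and culture cells 1640 ± 75 CPM and 1730 ± 94.5 CPM. Ifi27l2a contributed a large part of these UMIs. Without it the sums were 644 ± 101 CPM in MitoPositive and 674 ± 223 CPM in MitoNegative tumor cells, 1820 ± 140 CPM and 1990 ± 434 CPM in spleen cells, and 1290 ± 37.9 CPM and 1400 ± 74.8 CPM in culture cells. The highest single sum, 6360 CPM, belonged to MitoNegative spleen cells of donor 1, and the other spleen samples lay between 3320 and 4120 CPM.

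**Figure D1:**
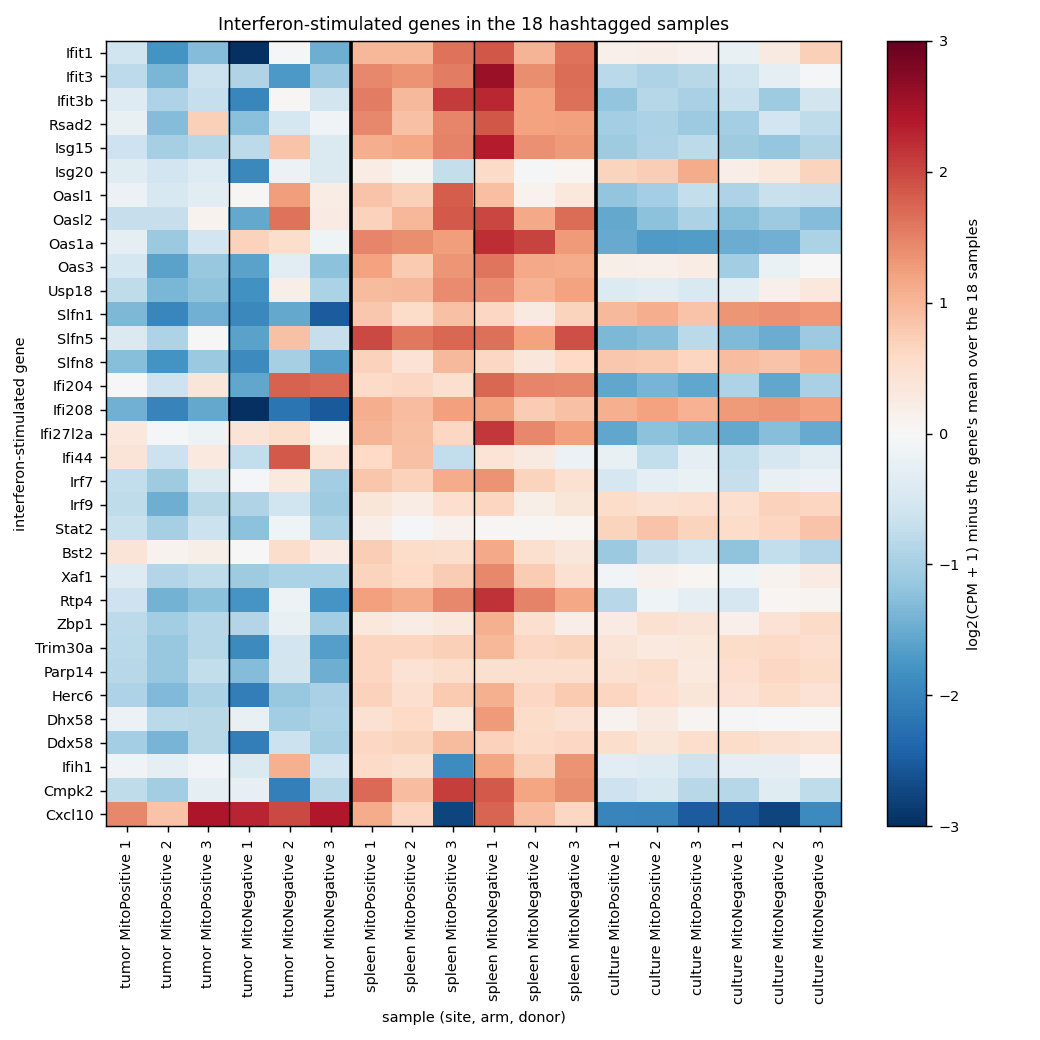
Each row is an interferon-stimulated gene and each column a hashtagged sample, and colour gives log2(CPM + 1) minus the mean of that gene over the 18 samples (red above, blue below). Most rows are red in the 6 spleen columns and blue in the 6 tumor columns, and Cxcl10, in the bottom row, is blue in the culture columns.

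The first question was whether T cells that had taken up stromal mitochondria differed in these genes from those that had not. The main fit for culture had no donor term, although the arms are paired by donor. In that fit, 26 members passed the filter on low counts and 1 of these passed the test, against 9.26% of all 11436 genes tested. It was Slfn1, of the Schlafen family of interferon-induced proteins, which fell by 0.32 ± 0.07 on the log2 scale in MitoPositive cells (edgeR quasi-likelihood test, Benjamini-Hochberg adjusted p = 0.0157). Throughout, ± beside a log2 fold change is a standard error derived from the test, the fold change divided by the square root of its F statistic. Near a fold change of 0 both terms are small, and this error says little there. The level of Slfn1 was 218, 240 and 202 CPM in MitoPositive cells of donors 1, 2 and 3, an order kept below, and 283, 288 and 274 CPM in MitoNegative cells. The groups did not overlap. With donor as a replicate block, 6 members passed: Isg20 (log2 fold change 0.49, adjusted p = 2.37e-05) and Oas3 (0.58, adjusted p = 0.00185) were higher, and Slfn1, Ifit3 (-0.62, adjusted p = 0.0122), Usp18 (-0.48, adjusted p = 0.0106) and Trim30a (-0.18, adjusted p = 0.0254) were lower in MitoPositive cells. The 9.26% of all genes belongs to the fit without this block. No share of all genes is given for the fit with it, so the 6 are not read against one. Oas3, an enzyme that makes the messenger which activates RNase L, stood at 23.1, 22.7 and 24.2 CPM in MitoPositive and 9.4, 17.7 and 20.5 CPM in MitoNegative culture cells. The protocol text also gives a second map of the culture hashtags, under which 0 members passed.

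In the tumor, 0 of 32 tested members passed between MitoPositive and MitoNegative cells in edgeR's quasi-likelihood test, where 0.193% of all 11905 genes did. DESeq2 also gave 0. In edgeR 6 members had an unadjusted p under 0.05, as did 1301 of all 11905 genes. The members' median log2 fold change was -0.12, against 0.05 over all genes, with 12 above and 20 below 0. Isg15 stood at 29.6, 22.6 and 24.8 CPM in MitoPositive and 26.2, 83.4 and 33.9 CPM in MitoNegative tumor cells, a log2 fold change of -0.92 ± 0.36 (adjusted p = 0.369). Ifi208, of the p200 family, stood at 12.2, 8.02 and 11.4 CPM and 2.01, 6.95 and 5.25 CPM in the same groups (0.98 ± 0.31, adjusted p = 0.245). Standard errors reached 0.74 (Oasl2) in this comparison, so small differences were not detectable at this depth.

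In the spleen, 1 of 32 members passed, against 4.55% of all genes. Ifi27l2a, which codes for a small protein of the ISG12 family, fell by 0.75 ± 0.14 log2 units in MitoPositive cells (adjusted p = 0.00856). It stood at 1799, 1679 and 1373 CPM in MitoPositive and 3864, 2411 and 2101 CPM in MitoNegative spleen cells, lower in every donor and with no overlap between the groups. Without the replicate block the adjusted p was 0.0757, and without donor 1 the log2 fold change was -0.54 (adjusted p = 0.151); over all alternatives the adjusted p ran from 4.76e-09 to 0.151. The members' median was -0.21, against 0.00 over all genes, and 24 of 32 were below 0. Isg15 stood at 98.8, 103 and 130 CPM in MitoPositive and 238, 121 and 112.7 CPM in MitoNegative spleen cells (-0.59 ± 0.29, adjusted p = 0.32). The highest value in both genes was that of MitoNegative cells of donor 1.

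The arm difference itself was compared between sites. For a difference between tumor and spleen, 0 of 32 members passed in edgeR, where 0.0504% of all genes passed, and 0 in DESeq2. In edgeR 3 members had an unadjusted p under 0.05, as did 1406 of all 11905 genes. On simulated counts this comparison recovered 30% of 2-fold changes, so differences of that size could be missed. Between spleen at d7 and culture at d0, 1 of 33 members passed, against 11% of all 12754 genes. Ifi27l2a had a log2 fold change of 0.11 ± 0.10 in culture (adjusted p = 0.558) and of -0.75 ± 0.14 in spleen, a difference of -0.87 ± 0.19 (adjusted p = 0.00533). In culture it stood at 302, 380 and 352 CPM in MitoPositive and 308, 368 and 311 CPM in MitoNegative cells, groups that overlap. The difference had an adjusted p of 0.0742 without a replicate block and 0.219 under the other hashtag map, and over all alternatives it ran from 8.65e-07 to 0.219.

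**Figure D2:**
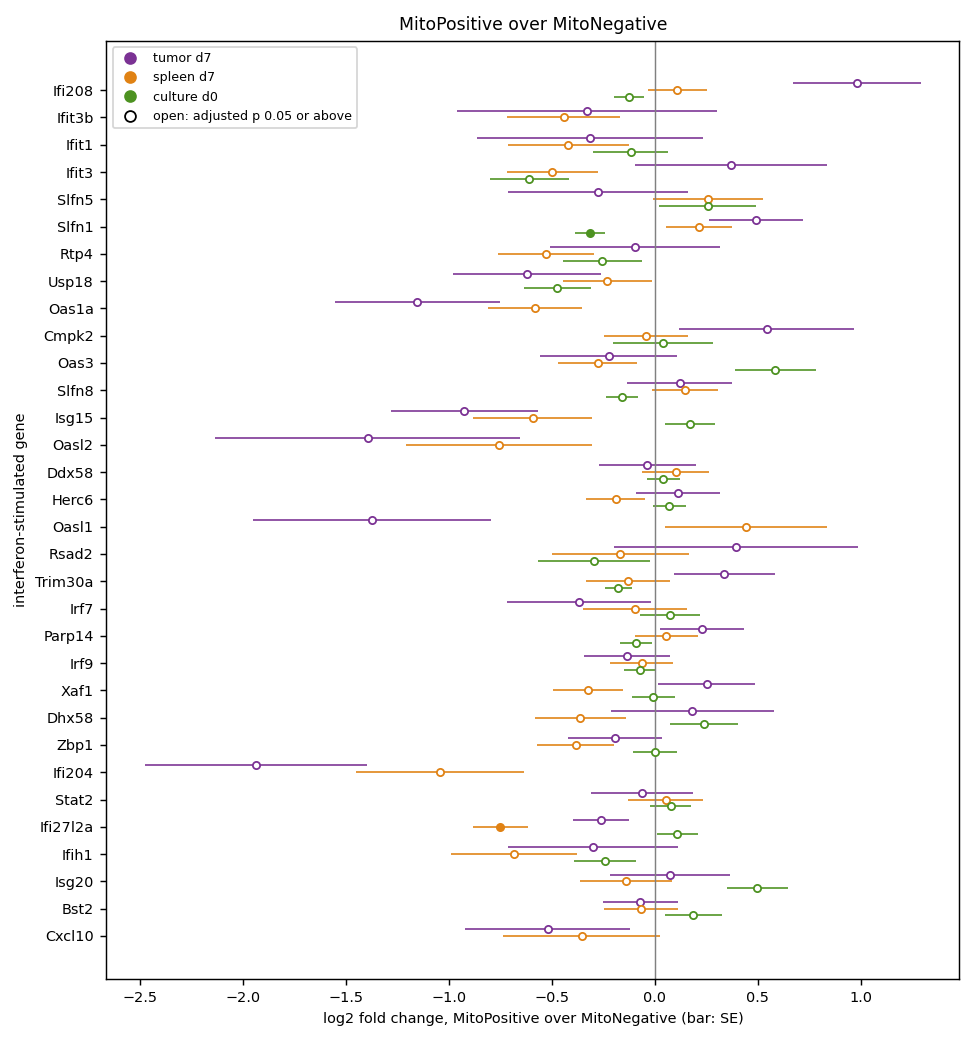
Points give the log2 fold change of each member, MitoPositive over MitoNegative, with its standard error, in tumor and spleen at d7 and in culture at d0. Filled points passed at an adjusted p under 0.05, which held for Ifi27l2a in spleen and Slfn1 in culture. The culture points come from the fit without a donor term.

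Between the organs most members fell in the tumor. In MitoPositive cells 27 of 32 tested members fell in the tumor relative to the spleen and 0 rose, against 28.4% of all genes that fell and 28.5% that rose. In MitoNegative cells 25 of 32 fell and 1 rose, against 23.1% and 20.2% of all genes. The members' median log2 fold change was -1.59 in MitoPositive and -1.64 in MitoNegative cells, against -0.01 and -0.08 over all genes. The 25 members that fell in MitoNegative cells had all fallen in MitoPositive cells. All tumor samples lay below all spleen samples for 29 of 33 members in MitoPositive and 26 of 33 in MitoNegative cells, against 31.5% and 31.8% of all genes. All tumor samples lay above all spleen samples for 0 members in MitoPositive cells and 1, Cxcl10, in MitoNegative cells, against 26.5% and 17.5% of all genes. With every cell thinned to 2000 UMIs, 20 members fell and 1 rose in MitoPositive cells, and 17 fell and 0 rose in MitoNegative cells. The shares of all genes above are those of the main fit and do not apply to the thinned counts.

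**Figure D3:**
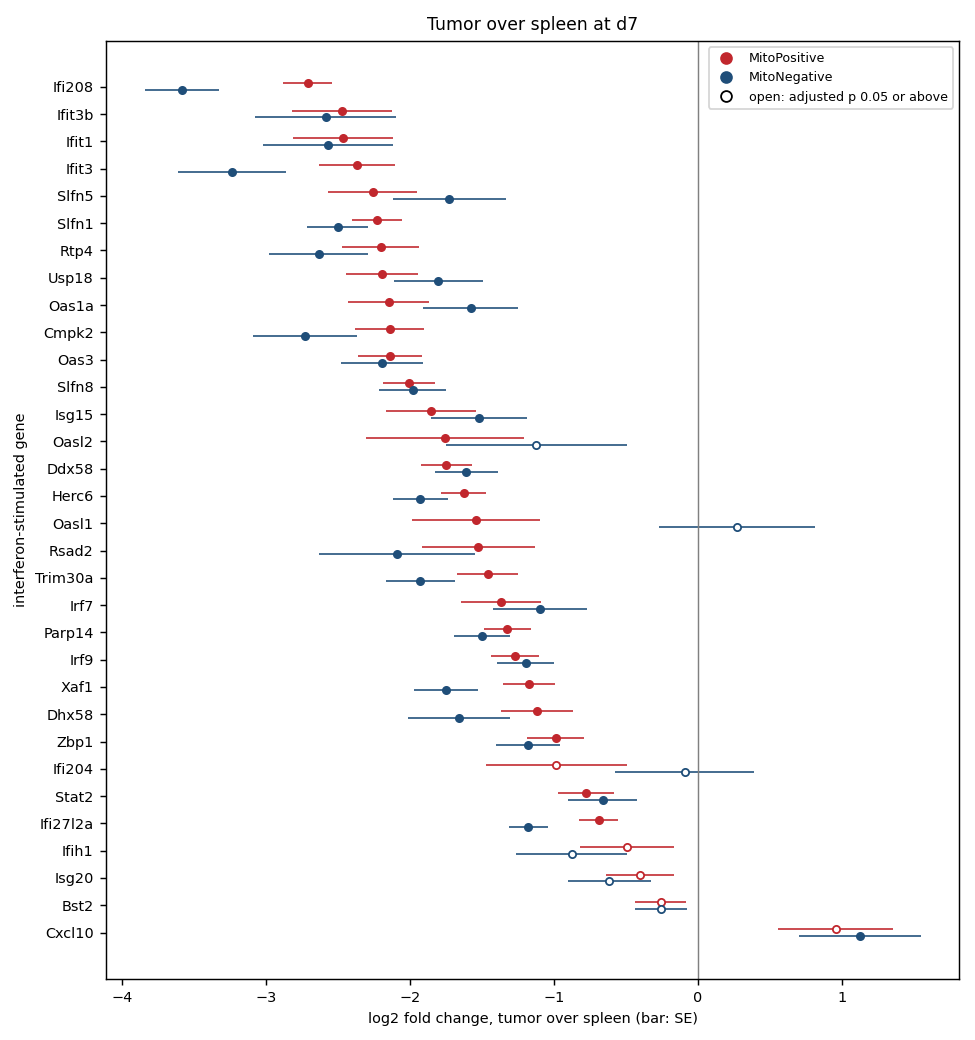
Points give the log2 fold change of each member, tumor over spleen at d7, with its standard error, in MitoPositive and MitoNegative cells, in the order of the MitoPositive values. Nearly all lie left of 0, from -2.71 for Ifi208 to 0.96 for Cxcl10 in MitoPositive cells, and the open points did not pass.

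CPM are shares of the UMIs of a sample, and tumor cells gave more UMIs, so the same members were also counted as UMIs per cell. By that measure 19 of 33 members were lower in the tumor in all 3 donors in MitoPositive cells, against 6.01% of all genes tested, and 7 were higher, against 78.4%. In MitoNegative cells 16 members were lower in all 3 donors, against 6.95% of all genes, and 1, Cxcl10, was higher, against 61.5%. Those higher in MitoPositive cells were Isg20, Ifi27l2a, Stat2, Bst2, Zbp1, Ifih1 and Cxcl10, which was at 0 UMIs in the spleen sample of donor 3. The summed UMIs of the members per cell in the tumor were 1.18, 1.23 and 1.17 times those in the spleen in MitoPositive and 0.564, 0.992 and 1.14 times in MitoNegative cells, and without Ifi27l2a 0.910, 0.939 and 0.918 times and 0.435, 1.00 and 0.966 times. In CPM the sum in the tumor was 0.499, 0.415 and 0.450 times in MitoPositive and 0.264, 0.538 and 0.391 times that in the spleen in MitoNegative cells.

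Between culture and spleen most members rose in the spleen in CPM. In MitoPositive cells 23 of 33 tested members rose in the spleen at d7 relative to culture at d0 and 2 fell, against 23.8% of all genes that rose and 22.5% that fell. In MitoNegative cells 25 rose and 3 fell, against 33% and 29%. The median log2 fold change was 1.2 in MitoPositive and 1.5 in MitoNegative cells, against -0.01 and 0.03 over all genes, and 23 members rose in both arms. Only 26 of the 33 members passed the filter on low counts in the culture samples alone. The others, Ifit3b, Oas1a, Oasl1, Oasl2, Ifi204, Ifi44 and Cxcl10, were tested because the d7 samples were included. All of them are among the members counted as risen in both arms, and their rise is partly set by the filter. By UMIs per cell, 16 of 33 members were higher in the spleen in all 3 donors in MitoPositive cells, against 7.18% of all genes tested, and 10 were lower, against 59.7%. In MitoNegative cells 22 were higher, against 33.4%, and 2 were lower, against 31.9%. Day, organ and library differ together in this comparison and cannot be told apart. Macrophage markers, 10 genes summed, stood at 107 to 208 CPM in 5 spleen samples and at 761 CPM in the spleen sample of 49 cells, against 1.78 to 5.10 CPM in culture samples. In the tumor they stood at 20.9 to 209 CPM, and MitoNegative tumor cells of donor 2 (209 CPM) held more than MitoNegative spleen cells of that donor (172 CPM). With cells holding 2 or more UMIs of other-cell markers left out, 22 and 25 members rose over culture in MitoPositive and MitoNegative spleen cells. With the same cells left out, 27 members fell in the tumor in each arm. Cells with a single such UMI were kept, and no share of all genes is given for these counts.

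The members that bind or degrade RNA are described first. Ifit1, which binds RNA with a foreign cap, and Ifit3, which in human cells stabilises IFIT1, were both in this group. Ifit3 stood at 6.7, 4.1 and 7.5 CPM in MitoPositive tumor cells, 35.1, 32.5 and 37.1 CPM in MitoPositive spleen cells and 6.51, 5.98 and 6.41 CPM in MitoPositive culture cells. MitoNegative cells held Ifit3 at 6.04, 2.98 and 5.25 CPM in the tumor, 78.8, 33.9 and 41.2 CPM in the spleen and 7.78, 9.78 and 12 CPM in culture. The spleen samples were the highest of all, at 32.5 CPM or more, and no tumor or culture sample exceeded 12 CPM. Tumor over spleen, Ifit3 fell by 2.37 ± 0.26 log2 units in MitoPositive cells (adjusted p = 7.46e-06) and fell by 3.24 ± 0.37 log2 units in MitoNegative cells (adjusted p = 1.63e-05). Spleen over culture, Ifit3 rose by 2.56 ± 0.24 log2 units in MitoPositive cells (adjusted p = 1.5e-07) and rose by 2.48 ± 0.21 log2 units in MitoNegative cells (adjusted p = 1.82e-08). Ifit3b is a near copy of Ifit3, and 8.68% of the windows of 90 bases in the last 400 bases of Ifit3 also occur in Ifit3b, so reads could be split between them. Ifit3b held 1.97, 1.04 and 1.4 CPM in MitoPositive tumor cells, 10.2, 6.62 and 15.5 CPM in MitoPositive spleen cells and 0.708, 1.13 and 0.972 CPM in MitoPositive culture cells. MitoNegative cells held Ifit3b at 0, 2.98 and 1.62 CPM in the tumor, 17.6, 7.94 and 11.1 CPM in the spleen and 1.45, 0.858 and 1.62 CPM in culture. It was at 0 UMIs in MitoNegative tumor cells of donor 1, which allows up to 6.04 CPM there. Tumor over spleen, Ifit3b fell by 2.47 ± 0.35 log2 units in MitoPositive cells (adjusted p = 5.2e-05) and fell by 2.59 ± 0.49 log2 units in MitoNegative cells (adjusted p = 0.000851). Ifit1 ranged from 0 to 16.9 CPM in tumor, from 35.2 to 65.0 CPM in spleen and from 14.6 to 28.8 CPM in culture samples.

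The oligoadenylate synthetases Oas1a and Oas3 make the messenger that activates RNase L. Oas1a stood at 4.73, 2.2 and 3.66 CPM in MitoPositive tumor cells, 17.9, 17.2 and 15.5 CPM in MitoPositive spleen cells and 1.42, 1.13 and 1.17 CPM in MitoPositive culture cells. MitoNegative cells held Oas1a at 10.1, 8.93 and 5.25 CPM in the tumor, 30.7, 27.2 and 15.7 CPM in the spleen and 1.45, 1.54 and 2.59 CPM in culture. The 6 spleen samples were the highest, at 15.5 to 30.7 CPM. Tumor over spleen, Oas1a fell by 2.15 ± 0.28 log2 units in MitoPositive cells (adjusted p = 2.99e-05) and fell by 1.58 ± 0.33 log2 units in MitoNegative cells (adjusted p = 0.00172). Spleen over culture, Oas1a rose by 3.79 ± 0.29 log2 units in MitoPositive cells (adjusted p = 1.83e-08) and rose by 3.83 ± 0.27 log2 units in MitoNegative cells (adjusted p = 1.52e-09). Oas1a passed the filter on low counts only with the d7 samples, so this rise is partly set by the filter. Of the 90-base windows of Oas1a, 23.8% also occur in Oas1g. Oas3 stood at 13.8, 6.06 and 8.81 CPM in MitoPositive tumor cells, 48.9, 36.2 and 52.6 CPM in MitoPositive spleen cells and 23.1, 22.7 and 24.2 CPM in MitoPositive culture cells. MitoNegative cells held Oas3 at 6.04, 15.9 and 8.08 CPM in the tumor, 64.6, 45.9 and 45.3 CPM in the spleen and 9.4, 17.7 and 20.5 CPM in culture. Spleen samples were the highest, and the tumor range of 6.04 to 15.9 CPM overlapped the culture range of 9.40 to 24.2 CPM. Tumor over spleen, Oas3 fell by 2.14 ± 0.22 log2 units in MitoPositive cells (adjusted p = 4.42e-06) and fell by 2.19 ± 0.28 log2 units in MitoNegative cells (adjusted p = 4.32e-05). Spleen over culture, Oas3 rose by 0.94 ± 0.21 log2 units in MitoPositive cells (adjusted p = 0.00139) and rose by 1.84 ± 0.20 log2 units in MitoNegative cells (adjusted p = 4.64e-07). Oasl1, an inhibitor of Irf7 translation, and Oasl2 were low everywhere, at 1.10 to 5.95 and 0 to 7.94 CPM in tumor, 2.14 to 9.28 and 3.63 to 10.6 CPM in spleen, and 0.283 to 0.858 and 0 to 0.486 CPM in culture samples. Isg20, an exonuclease, was measured at 6.04 to 22.8 CPM in tumor, 15.5 to 39.3 CPM in spleen and 29.8 to 57.4 CPM in culture samples. Spleen over culture, Isg20 fell by 0.68 ± 0.20 log2 units in MitoPositive cells (adjusted p = 0.0111) and had a log2 fold change of -0.03 ± 0.19 in MitoNegative cells (adjusted p = 0.903).

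Isg15 is a ubiquitin-like protein that is attached to other proteins, Herc6 is the ligase that attaches it in the mouse, and Usp18 removes it and damps signalling at the type I receptor. Isg15 stood at 29.6, 22.6 and 24.8 CPM in MitoPositive tumor cells, 98.8, 103 and 130 CPM in MitoPositive spleen cells and 21.2, 23.8 and 26.4 CPM in MitoPositive culture cells. MitoNegative cells held Isg15 at 26.2, 83.4 and 33.9 CPM in the tumor, 238, 121 and 112.7 CPM in the spleen and 21.3, 20.1 and 24.3 CPM in culture. Tumor and culture ranges overlapped in MitoPositive cells but not in MitoNegative cells, where the tumor sample of donor 2 reached 83.4 CPM. Tumor over spleen, Isg15 fell by 1.85 ± 0.31 log2 units in MitoPositive cells (adjusted p = 0.000236) and fell by 1.52 ± 0.33 log2 units in MitoNegative cells (adjusted p = 0.0024). Spleen over culture, Isg15 rose by 2.15 ± 0.26 log2 units in MitoPositive cells (adjusted p = 3.1e-06) and rose by 2.96 ± 0.25 log2 units in MitoNegative cells (adjusted p = 1.72e-08). Usp18 stood at 9.46, 5.82 and 6.63 CPM in MitoPositive tumor cells, 33.1, 33.4 and 46.4 CPM in MitoPositive spleen cells and 12.2, 13.1 and 11.8 CPM in MitoPositive culture cells. MitoNegative cells held Usp18 at 4.03, 18.9 and 8.08 CPM in the tumor, 45.8, 35.5 and 39.7 CPM in the spleen and 13.2, 18.5 and 20.9 CPM in culture. It was highest in spleen samples of both arms. Tumor over spleen, Usp18 fell by 2.19 ± 0.25 log2 units in MitoPositive cells (adjusted p = 9.51e-06) and fell by 1.80 ± 0.31 log2 units in MitoNegative cells (adjusted p = 0.000396). Herc6 was at 27.6, 21 and 27.2 CPM in MitoPositive tumor cells, 86.9, 76.3 and 92.8 CPM in MitoPositive spleen cells and 84, 76.2 and 69.8 CPM in MitoPositive culture cells. MitoNegative cells held Herc6 at 12.1, 23.8 and 27.1 CPM in the tumor, 113.3, 83.7 and 93.7 CPM in the spleen and 72.9, 79.5 and 72.3 CPM in culture. Spleen and culture ranges of Herc6 overlapped, and every tumor sample lay below both. Tumor over spleen, Herc6 fell by 1.63 ± 0.16 log2 units in MitoPositive cells (adjusted p = 2.31e-06) and fell by 1.93 ± 0.19 log2 units in MitoNegative cells (adjusted p = 4.33e-06). Spleen over culture, Herc6 had a log2 fold change of 0.24 ± 0.12 in MitoPositive cells (adjusted p = 0.104) and rose by 0.53 ± 0.11 log2 units in MitoNegative cells (adjusted p = 0.000396).

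Of the transcription factors, Irf7, which drives the genes of type I interferons, rose in spleen over culture in both arms, whereas Stat2, which acts at the ISRE, fell and Irf9, its partner there, did not pass. Irf7 stood at 17.3, 13.6 and 21.5 CPM in MitoPositive tumor cells, 53.5, 48.4 and 65 CPM in MitoPositive spleen cells and 20.7, 24.4 and 25.5 CPM in MitoPositive culture cells. MitoNegative cells held Irf7 at 28.2, 36.7 and 13.7 CPM in the tumor, 77, 47.6 and 40.9 CPM in the spleen and 17.9, 25.2 and 26 CPM in culture. Spleen samples were the highest and tumor and culture ranges overlapped. Tumor over spleen, Irf7 fell by 1.37 ± 0.28 log2 units in MitoPositive cells (adjusted p = 0.00094) and fell by 1.10 ± 0.33 log2 units in MitoNegative cells (adjusted p = 0.015). Spleen over culture, Irf7 rose by 1.20 ± 0.23 log2 units in MitoPositive cells (adjusted p = 0.000436) and rose by 1.40 ± 0.22 log2 units in MitoNegative cells (adjusted p = 2.55e-05). Irf9 stood at 28.8, 17.5 and 27.8 CPM in MitoPositive tumor cells, 64.7, 58.1 and 71.1 CPM in MitoPositive spleen cells and 73.2, 68.7 and 71.2 CPM in MitoPositive culture cells. MitoNegative cells held Irf9 at 26.2, 32.8 and 23.4 CPM in the tumor, 78.9, 56.7 and 64.5 CPM in the spleen and 71.1, 80.8 and 78.1 CPM in culture. Spleen and culture overlapped and the tumor was lower. Tumor over spleen, Irf9 fell by 1.27 ± 0.17 log2 units in MitoPositive cells (adjusted p = 3.09e-05) and fell by 1.20 ± 0.20 log2 units in MitoNegative cells (adjusted p = 0.000307). Spleen over culture, Irf9 had a log2 fold change of -0.07 ± 0.13 in MitoPositive cells (adjusted p = 0.713) and had a log2 fold change of -0.05 ± 0.12 in MitoNegative cells (adjusted p = 0.736). Stat2 stood at 15.4, 12.2 and 15.7 CPM in MitoPositive tumor cells, 29.2, 24 and 27.8 CPM in MitoPositive spleen cells and 40.4, 46 and 40.8 CPM in MitoPositive culture cells. MitoNegative cells held Stat2 at 10.1, 22.8 and 12.5 CPM in the tumor, 25.7, 25.8 and 26.2 CPM in the spleen and 37.2, 40.2 and 46.4 CPM in culture. Stat2 was highest in culture, lower in spleen and lowest in the tumor in MitoPositive cells, with no overlap. Tumor over spleen, Stat2 fell by 0.78 ± 0.20 log2 units in MitoPositive cells (adjusted p = 0.00407) and fell by 0.66 ± 0.24 log2 units in MitoNegative cells (adjusted p = 0.0388). Spleen over culture, Stat2 fell by 0.56 ± 0.15 log2 units in MitoPositive cells (adjusted p = 0.0043) and fell by 0.52 ± 0.13 log2 units in MitoNegative cells (adjusted p = 0.00227).

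Of the members with roles at membranes or in nucleotide metabolism, Rsad2 makes an antiviral form of CTP, Cmpk2 is a nucleotide kinase of mitochondria, and Bst2 tethers budding viruses to the cell. Rsad2 and Cmpk2 lie side by side on chromosome 12. Rsad2 stood at 5.12, 1.9 and 10.7 CPM in MitoPositive tumor cells, 18.4, 12.2 and 18.6 CPM in MitoPositive spleen cells and 2.55, 2.71 and 2.33 CPM in MitoPositive culture cells. MitoNegative cells held Rsad2 at 2.01, 3.97 and 5.66 CPM in the tumor, 25.2, 15.4 and 15.7 CPM in the spleen and 2.53, 3.77 and 3.23 CPM in culture. The range in tumor samples included that in culture samples. Tumor over spleen, Rsad2 fell by 1.53 ± 0.39 log2 units in MitoPositive cells (adjusted p = 0.00476) and fell by 2.09 ± 0.54 log2 units in MitoNegative cells (adjusted p = 0.00698). Spleen over culture, Rsad2 rose by 2.86 ± 0.36 log2 units in MitoPositive cells (adjusted p = 4.68e-06) and rose by 2.75 ± 0.34 log2 units in MitoNegative cells (adjusted p = 1.5e-06). Cmpk2 stood at 3.94, 3.06 and 5.93 CPM in MitoPositive tumor cells, 25.8, 14.7 and 34 CPM in MitoPositive spleen cells and 4.39, 4.96 and 3.69 CPM in MitoPositive culture cells. MitoNegative cells held Cmpk2 at 6.04, 0.993 and 3.64 CPM in the tumor, 28.6, 18 and 20.9 CPM in the spleen and 3.62, 5.49 and 3.88 CPM in culture. Spleen samples held 14.7 CPM or more, and tumor and culture samples 6.04 CPM or less. Tumor over spleen, Cmpk2 fell by 2.14 ± 0.24 log2 units in MitoPositive cells (adjusted p = 8.71e-06) and fell by 2.73 ± 0.36 log2 units in MitoNegative cells (adjusted p = 5.16e-05). Spleen over culture, Cmpk2 rose by 2.41 ± 0.22 log2 units in MitoPositive cells (adjusted p = 1.14e-07) and rose by 2.53 ± 0.21 log2 units in MitoNegative cells (adjusted p = 1.39e-08). Bst2 stood at 174, 143 and 149 CPM in MitoPositive tumor cells, 222, 196 and 192 CPM in MitoPositive spleen cells and 61.3, 81.3 and 86.8 CPM in MitoPositive culture cells. MitoNegative cells held Bst2 at 135, 192 and 158 CPM in the tumor, 295, 185 and 168 CPM in the spleen and 57.3, 78.8 and 72.3 CPM in culture. Bst2 lay above every culture sample in all 12 samples of d7. Tumor over spleen, Bst2 had a log2 fold change of -0.26 ± 0.18 in MitoPositive cells (adjusted p = 0.232) and had a log2 fold change of -0.26 ± 0.18 in MitoNegative cells (adjusted p = 0.28). Spleen over culture, Bst2 rose by 1.49 ± 0.18 log2 units in MitoPositive cells (adjusted p = 3.8e-06) and rose by 1.77 ± 0.18 log2 units in MitoNegative cells (adjusted p = 1.26e-07).

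The Schlafen genes are Slfn1, Slfn5 and Slfn8. Slfn5 stood at 10.2, 6.98 and 14.3 CPM in MitoPositive tumor cells, 59, 44.7 and 49.5 CPM in MitoPositive spleen cells and 4.96, 5.3 and 7.68 CPM in MitoPositive culture cells. MitoNegative cells held Slfn5 at 4.03, 26.8 and 8.49 CPM in the tumor, 47.2, 34.3 and 57.3 CPM in the spleen and 5.06, 4.46 and 6.15 CPM in culture. Slfn5 was highest in spleen, and the tumor samples spread from 4.03 to 26.8 CPM. Tumor over spleen, Slfn5 fell by 2.26 ± 0.31 log2 units in MitoPositive cells (adjusted p = 4.07e-05) and fell by 1.73 ± 0.39 log2 units in MitoNegative cells (adjusted p = 0.003). Spleen over culture, Slfn5 rose by 3.25 ± 0.27 log2 units in MitoPositive cells (adjusted p = 5.83e-08) and rose by 3.26 ± 0.28 log2 units in MitoNegative cells (adjusted p = 2.09e-08). Slfn1 stood at 43.4, 27.8 and 40.3 CPM in MitoPositive tumor cells, 196, 164 and 204 CPM in MitoPositive spleen cells and 218, 240 and 202 CPM in MitoPositive culture cells. MitoNegative cells held Slfn1 at 28.2, 37.7 and 19 CPM in the tumor, 173, 135 and 178 CPM in the spleen and 283, 288 and 274 CPM in culture. Slfn1 was high in culture and in spleen and low in every tumor sample. Tumor over spleen, Slfn1 fell by 2.23 ± 0.17 log2 units in MitoPositive cells (adjusted p = 3.82e-07) and fell by 2.50 ± 0.21 log2 units in MitoNegative cells (adjusted p = 1.19e-06). Spleen over culture, Slfn1 had a log2 fold change of -0.14 ± 0.13 in MitoPositive cells (adjusted p = 0.415) and fell by 0.66 ± 0.13 log2 units in MitoNegative cells (adjusted p = 0.000182). Slfn8 stood at 16.2, 10.9 and 18.1 CPM in MitoPositive tumor cells, 65.7, 55 and 80.4 CPM in MitoPositive spleen cells and 71.5, 70.4 and 64 CPM in MitoPositive culture cells. MitoNegative cells held Slfn8 at 10.1, 19.9 and 12.1 CPM in the tumor, 62.6, 51.6 and 61.6 CPM in the spleen and 77.2, 74.3 and 84.1 CPM in culture. Slfn8 tumor samples lay below all others, at 10.1 to 19.9 CPM. Tumor over spleen, Slfn8 fell by 2.01 ± 0.18 log2 units in MitoPositive cells (adjusted p = 1.15e-06) and fell by 1.98 ± 0.23 log2 units in MitoNegative cells (adjusted p = 1.71e-05). Spleen over culture, Slfn8 had a log2 fold change of 0.01 ± 0.12 in MitoPositive cells (adjusted p = 0.992) and fell by 0.27 ± 0.11 log2 units in MitoNegative cells (adjusted p = 0.0446).

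The sensors of foreign nucleic acid include Ddx58 (RIG-I), Ifih1 (MDA5) and their relative Dhx58, Zbp1, which binds Z-form nucleic acid, and the p200 genes Ifi204 and Ifi208. Ifi208 stood at 12.2, 8.02 and 11.4 CPM in MitoPositive tumor cells, 76.3, 67.5 and 83.5 CPM in MitoPositive spleen cells and 74.9, 82.7 and 73.7 CPM in MitoPositive culture cells. MitoNegative cells held Ifi208 at 2.01, 6.95 and 5.25 CPM in the tumor, 82.8, 59.7 and 65 CPM in the spleen and 86.4, 88.9 and 84.3 CPM in culture. Ifi208 had the smallest adjusted p of all members between the organs in both arms, and spleen and culture overlapped in MitoPositive cells. Tumor over spleen, Ifi208 fell by 2.71 ± 0.17 log2 units in MitoPositive cells (adjusted p = 7.83e-08) and fell by 3.59 ± 0.25 log2 units in MitoNegative cells (adjusted p = 2.96e-07). Spleen over culture, Ifi208 had a log2 fold change of 0.03 ± 0.11 in MitoPositive cells (adjusted p = 0.996) and had a log2 fold change of -0.17 ± 0.10 in MitoNegative cells (adjusted p = 0.159). Of its 90-base windows 4.82% also occur in Ifi213. Ddx58 stood at 22.1, 16.7 and 25.4 CPM in MitoPositive tumor cells, 71.2, 73.8 and 89.7 CPM in MitoPositive spleen cells and 66.1, 59.6 and 66.2 CPM in MitoPositive culture cells. MitoNegative cells held Ddx58 at 10.1, 28.8 and 22.6 CPM in the tumor, 74.8, 68.7 and 70.8 CPM in the spleen and 67.6, 63 and 61.5 CPM in culture. Ddx58 was lower in every tumor sample than in any other sample. Tumor over spleen, Ddx58 fell by 1.75 ± 0.18 log2 units in MitoPositive cells (adjusted p = 3.82e-06) and fell by 1.61 ± 0.22 log2 units in MitoNegative cells (adjusted p = 6.24e-05). Spleen over culture, Ddx58 rose by 0.36 ± 0.13 log2 units in MitoPositive cells (adjusted p = 0.0311) and rose by 0.33 ± 0.12 log2 units in MitoNegative cells (adjusted p = 0.0266). Zbp1 ranged from 34.2 to 61.5 CPM in tumor, 82.4 to 151 CPM in spleen and 79.9 to 108 CPM in culture samples. Ifih1 ranged from 8.89 to 30.8, from 3.09 to 37.1 and from 8.75 to 13.6 CPM in tumor, spleen and culture samples, Dhx58 from 2.98 to 6.31, 9.28 to 18.8 and 7.05 to 8.91 CPM, and Ifi204 from 0 to 8.93, 3.09 to 8.64 and 0 to 0.542 CPM.

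The remaining members have other or less settled roles. Ifi27l2a stood at 1107, 863 and 804 CPM in MitoPositive tumor cells, 1799, 1679 and 1373 CPM in MitoPositive spleen cells and 302, 380 and 352 CPM in MitoPositive culture cells. MitoNegative cells held Ifi27l2a at 1170, 1290 and 929 CPM in the tumor, 3864, 2411 and 2101 CPM in the spleen and 308, 368 and 311 CPM in culture. Ifi27l2a in the tumor lay between spleen and culture, without overlap with either. Tumor over spleen, Ifi27l2a fell by 0.69 ± 0.14 log2 units in MitoPositive cells (adjusted p = 0.000735) and fell by 1.18 ± 0.14 log2 units in MitoNegative cells (adjusted p = 1.63e-05). Spleen over culture, Ifi27l2a rose by 2.33 ± 0.14 log2 units in MitoPositive cells (adjusted p = 1.14e-09) and rose by 3.20 ± 0.14 log2 units in MitoNegative cells (adjusted p = 9.31e-12). Rtp4 stood at 14.6, 8.02 and 9.24 CPM in MitoPositive tumor cells, 55.3, 51.1 and 65 CPM in MitoPositive spleen cells and 12.6, 21.1 and 18.7 CPM in MitoPositive culture cells. MitoNegative cells held Rtp4 at 6.04, 20.8 and 6.06 CPM in the tumor, 108, 66.6 and 52.7 CPM in the spleen and 16.1, 24 and 24.8 CPM in culture. Rtp4, a chaperone of membrane receptors, was highest in spleen. Tumor over spleen, Rtp4 fell by 2.20 ± 0.27 log2 units in MitoPositive cells (adjusted p = 1.62e-05) and fell by 2.64 ± 0.34 log2 units in MitoNegative cells (adjusted p = 4.49e-05). Trim30a stood at 70.2, 55.8 and 67.9 CPM in MitoPositive tumor cells, 193, 192 and 204 CPM in MitoPositive spleen cells and 161, 152 and 154 CPM in MitoPositive culture cells. MitoNegative cells held Trim30a at 32.2, 83.4 and 38.8 CPM in the tumor, 248, 192 and 198 CPM in the spleen and 180, 185 and 177 CPM in culture. Trim30a, of the TRIM family of ubiquitin ligases, was lowest in the tumor. Tumor over spleen, Trim30a fell by 1.46 ± 0.21 log2 units in MitoPositive cells (adjusted p = 7.19e-05) and fell by 1.93 ± 0.24 log2 units in MitoNegative cells (adjusted p = 2.99e-05). Spleen over culture, Trim30a rose by 0.41 ± 0.16 log2 units in MitoPositive cells (adjusted p = 0.0469) and rose by 0.39 ± 0.15 log2 units in MitoNegative cells (adjusted p = 0.0356).

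Xaf1 stood at 35.9, 25.2 and 27.2 CPM in MitoPositive tumor cells, 75, 71.8 and 80.4 CPM in MitoPositive spleen cells and 44.3, 51.5 and 49.5 CPM in MitoPositive culture cells. MitoNegative cells held Xaf1 at 22.2, 23.8 and 23.8 CPM in the tumor, 130, 81.2 and 65 CPM in the spleen and 43.4, 50.8 and 56.1 CPM in culture. Xaf1, a binding partner of the apoptosis inhibitor Xiap, was lower in every tumor sample than in any other. Tumor over spleen, Xaf1 fell by 1.17 ± 0.18 log2 units in MitoPositive cells (adjusted p = 0.000118) and fell by 1.75 ± 0.22 log2 units in MitoNegative cells (adjusted p = 3.55e-05). Parp14 stood at 36.7, 29.7 and 39.1 CPM in MitoPositive tumor cells, 103, 88.9 and 95.9 CPM in MitoPositive spleen cells and 90.8, 95.9 and 81.3 CPM in MitoPositive culture cells. MitoNegative cells held Parp14 at 26.2, 44.7 and 23.4 CPM in the tumor, 93.1, 93.1 and 92 CPM in the spleen and 93.7, 103 and 96.9 CPM in culture. Parp14, which adds ADP-ribose to proteins, had nearly the same range in spleen as in culture. Tumor over spleen, Parp14 fell by 1.33 ± 0.16 log2 units in MitoPositive cells (adjusted p = 1.78e-05) and fell by 1.5 ± 0.20 log2 units in MitoNegative cells (adjusted p = 4.48e-05). Spleen over culture, Parp14 had a log2 fold change of 0.21 ± 0.13 in MitoPositive cells (adjusted p = 0.194) and had a log2 fold change of 0.08 ± 0.12 in MitoNegative cells (adjusted p = 0.595). Ifi44 was near the limit of detection in all samples, at 0 to 4.96 CPM in tumor, 0 to 2.05 CPM in spleen and 0 to 0.425 CPM in culture samples, and did not pass the filter at d7 alone. In the fit with culture it was tested and counted among the members that rose in the spleen in both arms, although its MitoPositive spleen and culture groups overlapped.

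Cxcl10, a chemokine that attracts Cxcr3-bearing T cells, did not fall in the tumor in either arm. Cxcl10 stood at 17.3, 11.3 and 35.5 CPM in MitoPositive tumor cells, 13.6, 9.61 and 0 CPM in MitoPositive spleen cells and 0.708, 0.677 and 0.194 CPM in MitoPositive culture cells. MitoNegative cells held Cxcl10 at 32.2, 25.8 and 34.8 CPM in the tumor, 21.9, 12 and 9.39 CPM in the spleen and 0.181, 0 and 0.809 CPM in culture. In MitoNegative cells every tumor sample was above every spleen sample, and in MitoPositive cells the groups overlapped. Tumor over spleen, Cxcl10 had a log2 fold change of 0.96 ± 0.40 in MitoPositive cells (adjusted p = 0.0548) and rose by 1.12 ± 0.42 log2 units in MitoNegative cells (adjusted p = 0.0459). Spleen over culture, Cxcl10 rose by 4.63 ± 0.59 log2 units in MitoPositive cells (adjusted p = 5.64e-06) and rose by 5.56 ± 0.64 log2 units in MitoNegative cells (adjusted p = 6.45e-07). Cxcl10 passed the filter on low counts only with the d7 samples, so this rise is partly set by the filter. For tumor over spleen, the MitoNegative adjusted p was 0.0771 without the tumor sample of 30 cells and 0.0926 without donor 2. Over all alternatives it ran from 0.000145 to 0.0952. Cxcl10 was at 0 UMIs in the MitoPositive spleen sample of 49 cells, which allows up to 9.28 CPM.

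**Figure D4:**
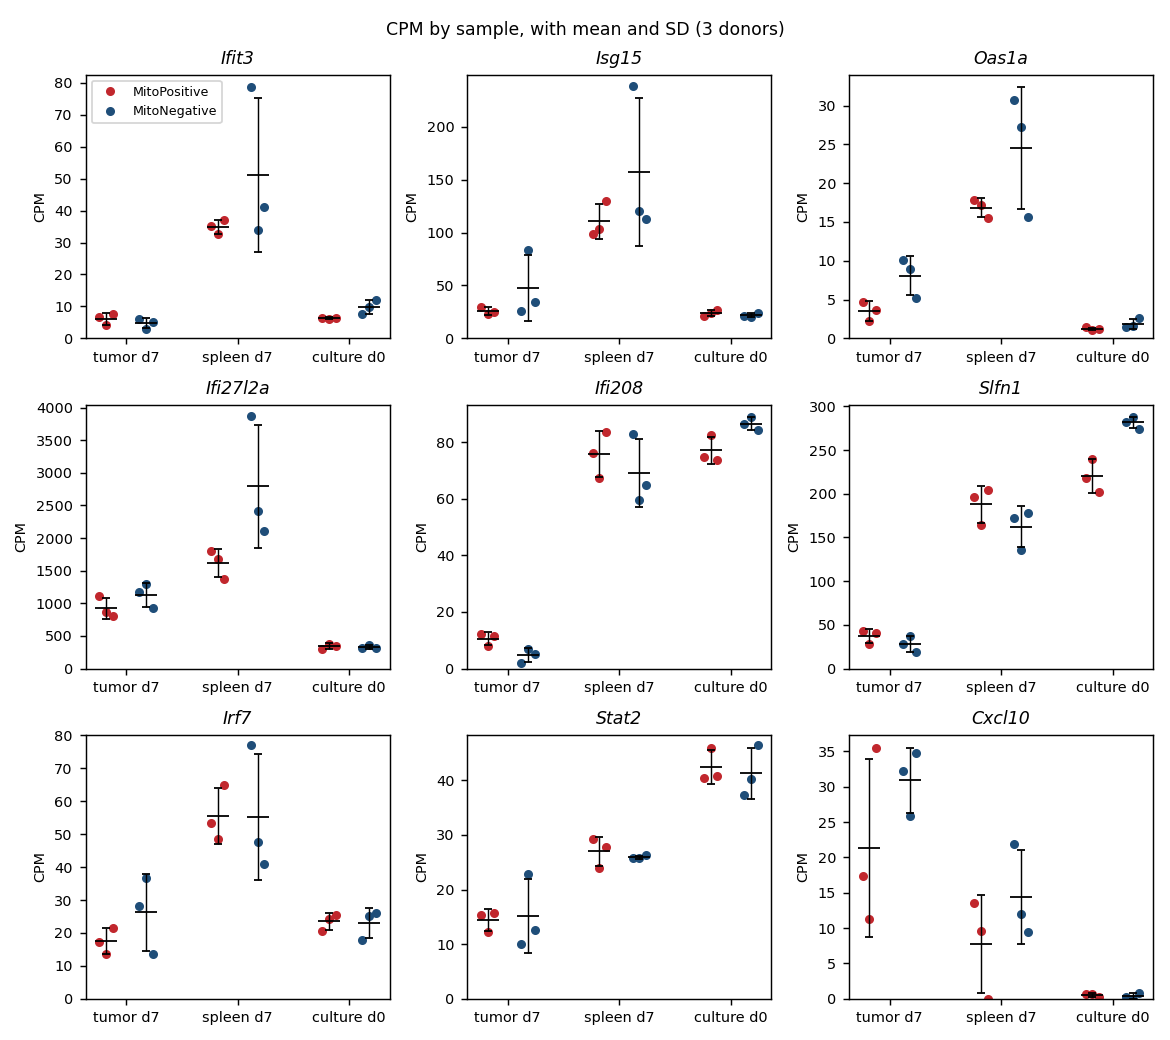
Points give CPM in each sample of tumor and spleen at d7 and culture at d0 for 9 members, MitoPositive left of MitoNegative, with mean and SD of 3 donors. Ifit3, Isg15, Oas1a and Irf7 peak in spleen, Ifi208 and Slfn1 are low in tumor, Stat2 is highest in culture, and Cxcl10 is highest in tumor.

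The sequences above can be set beside these changes. Of the 19 members with a promoter window that rose in both arms between culture and spleen, 13 had an ISRE core, and of the other 7 with a window, 3 did (Ifi208, Slfn8 and Stat2). Those 19 include Ifit3b, Oas1a, Oasl1, Oasl2, Ifi44 and Cxcl10, which passed the filter on low counts only with the d7 samples. Of the 19 members with a window that fell in the tumor in both arms, 13 had an ISRE core, and of the other 7, 3 did. Cmpk2, printed without a match, passed in the same directions as Rsad2, whose window holds 1 match, and Cxcl10, with a match at position -213, was not lower in the tumor.

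In single cells the members were counted as the number with at least 1 UMI after each cell had been thinned to 2000 UMIs, which left out cells with fewer. Spleen cells most often held 5 or more members. The share was 12.3%, 6.80% and 8.22% of MitoPositive and 6.67%, 13.1% and 8.04% of MitoNegative tumor cells. In spleen cells it was 26.5%, 21.6% and 36.7% (MitoPositive) and 44.9%, 26.5% and 25.3% (MitoNegative), and in culture cells 11.4%, 13.2% and 14.0% and 11.6%, 12.9% and 17.8%. Every spleen sample was above every tumor and culture sample. The median cell held 1.00 to 2.00 members in tumor, 3.00 to 4.00 in spleen and 2.00 to 3.00 in culture samples. The cut of 5 is a point on a range, since 3.33% to 32.0% of cells in a sample held 4 or 5 members. With 8 or more members, the shares were 0% to 3.70% in tumor, 6.27% to 14.2% in spleen and 0.557% to 2.43% in culture samples. With the other hashtag caller, HTODemux, 79 cells instead of 30 were assigned to MitoNegative tumor cells of donor 1, and 33.8% of those thinned held 5 or more members. MitoNegative spleen cells of donor 1 numbered 527 instead of 3421 (45.7% with 5 or more members), and MitoPositive spleen cells of donor 2 numbered 901 instead of 2291 (21.3%). In the d7 libraries of donors 1, 2 and 3, both callers gave the same call to 34.9%, 61.4% and 94.3% of barcodes. With HTODemux 27 members fell and 0 rose in the tumor in MitoPositive cells, and 21 fell and 1 rose in MitoNegative cells. No share of all genes is given for these counts.

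**Figure D5:**
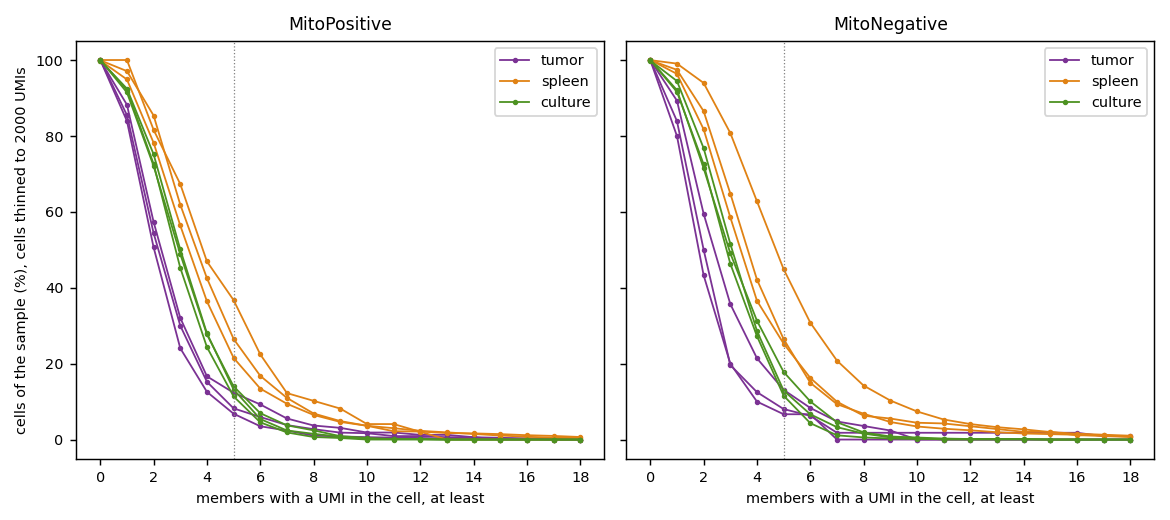
Lines give, for each sample, the percentage of cells (thinned to 2000 UMIs) that hold at least the number of members on the x axis, for MitoPositive and MitoNegative cells of tumor, spleen and culture. The 3 spleen lines run above the tumor and culture lines at 5 members (dotted line), and that of MitoNegative cells of donor 1 is the highest at 44.9%.

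A small population carried many of the members at once. One cluster of d7 cells, found from 2000 variable genes that include members, had a median of 14.0 members per thinned cell, against 3.00 in the other d7 cells, and 89.8% of its cells held 10 or more, against 2.05%. All values of its members describe how the cluster was found and are no test. It held 267 cells, of which 1 was a tumor cell: its share was 0.581%, 0% and 0% of MitoPositive and 0% of each MitoNegative tumor sample. In the spleen it made up 2.53% (exact 95% interval 1.70% to 3.61%, counting error only), 2.36% (1.78% to 3.06%) and 2.04% (0.0517% to 10.9%) of MitoPositive cells, and 3.89% (3.27% to 4.59%), 2.43% (1.64% to 3.45%) and 3.45% (2.09% to 5.34%) of MitoNegative cells. Counts of 0 have exact upper limits of 0.371% and 0.549% in MitoPositive tumor cells of donors 2 and 3, and of 11.6%, 4.25% and 3.24% in MitoNegative tumor cells. Isg15 had a UMI in 88.7% of its cells, against 13.0% of the other d7 cells, tumor cells included, Ifit3 in 66.0% against 4.68%, Rsad2 in 41.9% against 1.35% and Cxcl10 in 25.3% against 1.20%. Its cells had a median of 6836 UMIs, against 6643, and a mean of 0.345 UMIs of other-cell markers, against 1.73, and all had a Cd3 UMI. Tumor cells with 10 or more members did occur, nearly all outside the cluster. They were 1.85%, 0.618% and 1.67% of thinned MitoPositive and 0%, 0% and 1.79% of thinned MitoNegative tumor cells. In the spleen, in or outside the cluster, such cells were 3.63%, 3.68% and 4.08% (MitoPositive) and 7.41%, 3.45% and 4.43% (MitoNegative).

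The organ difference was also measured outside this cluster. Without its cells, 24 members fell and 1 rose in the tumor in MitoPositive cells, and 20 fell and 1 rose in MitoNegative cells. Since the cluster was found partly from members and lies almost wholly in the spleen, leaving it out lowers the members' spleen levels by construction. Over culture, 19 and 21 members rose in MitoPositive and MitoNegative spleen cells without the cluster. The counts without the cluster are given without a share of all genes.

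Within spleen samples, members of a pair were compared cell by cell. Among thinned cells with an Ifit1 UMI, Ifit3 was present in 28.3%, 30.8% and 25% of MitoPositive and 32.8%, 43.1% and 50% of MitoNegative cells. Among cells without an Ifit1 UMI it was present in 4.15%, 3.82% and 2.22% and in 8.64%, 2.39% and 3.56%. For Isg15 and Usp18 the shares were 15.4%, 16.6% and 10% (MitoPositive) and 14.4%, 14.3% and 25% (MitoNegative) with Isg15, against 4.32%, 3.61% and 0% and 5.56%, 4.28% and 4.81% without. Other pairs were counted too, and not all were as far apart. Stat2 was present in 8.62%, 12.6% and 0% (MitoPositive) and 6.9%, 9.62% and 8.33% (MitoNegative) of cells with Ifit3. Without Ifit3 the shares were 4.24%, 3.78% and 6.38% and 4.34%, 5.1% and 4.35%. Counts behind these shares were small in the MitoPositive sample of donor 3, which had 4 cells with Ifit1, 10 with Isg15 and 2 with Ifit3.

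In these T cells the ligands were scarce except for 1. Interferons made by other cells of the organs were not measured. Over all 136857122 UMIs, the 10 genes of type I and type III interferons with a row gave 7 UMIs, 6 of Ifnk and 1 of Ifna2. Ifng, the gene of interferon gamma, stood at 892, 928 and 553 CPM in MitoPositive and 4506, 5587 and 2044 CPM in MitoNegative tumor cells. In spleen cells it stood at 39.5, 44.5 and 43.3 CPM (MitoPositive) and 59.1, 42.2 and 42.1 CPM (MitoNegative), and in culture cells at 0.809 to 2.57 CPM. Tumor over spleen, Ifng rose by 4.49 ± 0.23 log2 units in MitoPositive cells (adjusted p = 1.86e-08) and rose by 6.40 ± 0.23 log2 units in MitoNegative cells (adjusted p = 8.23e-10). All 6 tumor samples lay above all spleen samples. The difference between the arms in the tumor was -2.25 ± 0.19 (adjusted p = 0.000211).

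Of the 9 receptor and kinase genes 8 were tested. In CPM, Ifnar2 was lower in the tumor than in the spleen, with 54.4, 47.4 and 48.8 CPM against 115, 102 and 118 CPM in MitoPositive and 50.4, 60.5 and 47.3 CPM against 108, 114 and 113.4 CPM in MitoNegative cells. Per cell it was not lower in MitoPositive tumor cells, with 138, 775 and 560 UMIs in 172, 993 and 670 cells. MitoPositive spleen cells had 824, 1301 and 38 UMIs in 1146, 2291 and 49 cells. MitoNegative cells had 25, 61 and 117 UMIs in 30, 85 and 112 tumor cells. In the spleen they had 2867, 906 and 471 UMIs in 3421, 1235 and 550 cells, near the tumor level per cell in donors 1 and 2. Tumor over spleen, Ifnar2 fell by 1.01 ± 0.11 log2 units in MitoPositive cells (adjusted p = 6.74e-06) and fell by 0.99 ± 0.12 log2 units in MitoNegative cells (adjusted p = 3.23e-05). Tumor over spleen, Ifnar1 rose by 0.40 ± 0.16 log2 units in MitoPositive cells (adjusted p = 0.0459) and had a log2 fold change of -0.05 ± 0.18 in MitoNegative cells (adjusted p = 0.863). Tumor over spleen, Ifngr1 rose by 0.40 ± 0.15 log2 units in MitoPositive cells (adjusted p = 0.0352) and rose by 0.75 ± 0.15 log2 units in MitoNegative cells (adjusted p = 0.00143). Tumor over spleen, Ifngr2 had a log2 fold change of -0.68 ± 0.64 in MitoPositive cells (adjusted p = 0.385) and did not pass in MitoNegative cells (-0.00 ± 0.28). Its MitoNegative tumor samples held 2, 4 and 6 UMIs, and the derived error says little for a fold change so near 0. Between culture and spleen, 4 of these genes fell and 0 rose in MitoPositive cells, and 6 fell and 0 rose in MitoNegative cells, Ifngr1 among them. Of all genes 22.5% fell and 23.8% rose in MitoPositive, and 29% fell and 33% rose in MitoNegative cells. Spleen over culture, Ifngr1 fell by 1.14 ± 0.13 log2 units in MitoPositive cells (adjusted p = 1.07e-06) and fell by 2.00 ± 0.12 log2 units in MitoNegative cells (adjusted p = 3.75e-10). In spleen, MitoPositive cells held more Ifngr1 than MitoNegative cells, at 227, 232 and 291 CPM against 127, 167 and 126 CPM (0.82 ± 0.15, adjusted p = 0.00899).

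Of 20 regulators tested, 3 rose and 10 fell in MitoPositive, and 4 rose and 9 fell in MitoNegative tumor cells relative to spleen. Of all genes 28.5% rose and 28.4% fell in MitoPositive, and 20.2% rose and 23.1% fell in MitoNegative tumor cells. Tumor over spleen, Irf1 had a log2 fold change of -0.09 ± 0.11 in MitoPositive cells (adjusted p = 0.519) and had a log2 fold change of -0.29 ± 0.12 in MitoNegative cells (adjusted p = 0.0707). Tumor over spleen, Socs1 fell by 1.31 ± 0.13 log2 units in MitoPositive cells (adjusted p = 2.85e-06) and fell by 1.23 ± 0.14 log2 units in MitoNegative cells (adjusted p = 1.37e-05). Stat3 and Irf8 had the smallest adjusted p and went up, Stat3 at 606, 562 and 583 CPM and 540, 581 and 610 CPM in MitoPositive and MitoNegative tumor cells, against 90.7, 97.5 and 111 CPM and 77.6, 93 and 110 CPM in spleen cells. Tumor over spleen, Stat3 rose by 2.68 ± 0.12 log2 units in MitoPositive cells (adjusted p = 4.32e-09) and rose by 2.73 ± 0.11 log2 units in MitoNegative cells (adjusted p = 2.04e-09). Tumor over spleen, Irf8 rose by 3.91 ± 0.23 log2 units in MitoPositive cells (adjusted p = 4.56e-08) and rose by 3.99 ± 0.21 log2 units in MitoNegative cells (adjusted p = 2.15e-08). Spleen over culture, Socs1 rose by 0.96 ± 0.11 log2 units in MitoPositive cells (adjusted p = 1.41e-06) and rose by 0.89 ± 0.10 log2 units in MitoNegative cells (adjusted p = 3.84e-07). Socs1, an inhibitor of Jak kinases, was also lower in MitoPositive than in MitoNegative cells in culture (-0.56 ± 0.08, adjusted p = 0.00105) and in spleen (-0.46 ± 0.12, adjusted p = 0.0453).

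Other interferon-stimulated genes, a list of 46 with 43 tested, had 37 lower and 0 higher in the tumor than in the spleen in each arm, where 28.4% (MitoPositive) and 23.1% (MitoNegative) of all genes were lower, and medians of -1.36 in MitoPositive and -1.38 in MitoNegative cells. The smallest adjusted p were those of the p200 genes Ifi203, Ifi209 and Ifi206. Tumor over spleen, Ifi209 fell by 2.23 ± 0.18 log2 units in MitoPositive cells (adjusted p = 5.38e-07) and fell by 2.84 ± 0.23 log2 units in MitoNegative cells (adjusted p = 8.91e-07). Counted as summed UMIs per cell, this list overlapped between the organs. MitoPositive cells held 46.6, 45.1 and 61.2 in the tumor against 52.9, 35.8 and 54.6 in the spleen. MitoNegative cells held 36.2, 37.7 and 59.5 against 65.8, 41.6 and 52.8. Over culture, 16 of 43 rose and 8 fell in MitoPositive spleen cells, against 23.8% and 22.5% of all genes, and 18 rose and 10 fell in MitoNegative ones, against 33% and 29%. Ifitm1 rose by 3.94 ± 0.40 log2 units in MitoPositive and 5.64 ± 0.43 log2 units in MitoNegative spleen cells. The 16 GTPases of the Gbp and Irg families, which are known targets of interferon gamma, were lower in the tumor than in the spleen and lower in the spleen than in culture in most tests. They fell in the tumor in 13 of 16 (MitoPositive) and 14 of 16 (MitoNegative) cases, and also fell in the spleen relative to culture in 10 of 16 and 12 of 16, with 0 and 1 higher. Of all genes, 28.4% and 23.1% fell in the tumor and 22.5% and 29% in the spleen in these comparisons. The sum of the GTPases was 281 ± 51.9 CPM and 237 ± 49.7 CPM in MitoPositive and MitoNegative tumor cells, 775 ± 70.4 CPM and 747 ± 111 CPM in spleen cells, and 1260 ± 103 CPM and 1400 ± 182 CPM in culture cells. As summed UMIs per cell, the GTPases overlapped between tumor and spleen. MitoPositive cells held 4.09, 3.80 and 5.73 in the tumor against 5.02, 3.85 and 5.45 in the spleen. MitoNegative cells held 3.00, 3.28 and 5.58 against 6.79, 4.39 and 5.16. Spleen over culture, Iigp1 fell by 2.27 ± 0.21 log2 units in MitoPositive cells (adjusted p = 1.5e-07) and fell by 3.28 ± 0.20 log2 units in MitoNegative cells (adjusted p = 2.99e-10). In culture, MitoPositive cells held more Ifitm1 (1.44 ± 0.24, adjusted p = 0.00256) and Ifitm2 (1.28 ± 0.33, adjusted p = 0.0292), which block viral entry, and less Gbp5 (-0.43 ± 0.09, adjusted p = 0.00883).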

How the data were processed

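Droplet 3′ libraries with hashtags were sequenced from 1 pool at d0 and from 1 pool per donor at d7. The deposited files hold raw UMI counts per gene and barcode, which the authors made with Cell Ranger 7.0.0 on mm10 (GRCm38), per the submitters' processing notes. Of 18092 barcodes, 17458 had at least 500 genes and at most 15% mitochondrial UMIs, and 16404 were given the hashtag with most UMIs, if it had 10 or more and exceeded the second by a factor of 3. Barcodes with no leading hashtag, which include doublets across samples, were left out. After removal of 2 clusters with few Cd3-positive cells (scanpy 1.11.5, leidenalg 0.10.2), 16364 cells remained. For the culture hashtags, the deposited list and the series' design text give one map (odd against even numbers), which was used, and the extraction protocol gives another (the first 3 against the rest), which was tried.

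Counts were summed per hashtagged sample and tested with edgeR 4.0.16 in R 4.3.3 (quasi-likelihood, TMM, filterByExpr, Benjamini-Hochberg over all genes, threshold 0.05), with library (donor) as a term at d7. Levels are CPM, and intervals and the limit set by a count of 0 (3 UMIs) cover counting error only. Scripts were tested on simulated data. Donor numbers come from the deposited list and pair the samples: same-donor deviations correlated at 0.083 to 0.339 at d0 and -0.0506 to 0.295 at d7, against -0.296 to 0.0542 and -0.206 to 0.092 between donors. Alternatives were DESeq2 1.42.0, DESeq2 size factors, no filter, thinning, HTODemux (Seurat 5.3.0), other cell filters, each replicate left out, and the block added or dropped. Members, lists and tests were chosen with earlier results of these data known. Per-sample values are given for members that passed in a comparison (the 10 with the smallest adjusted p in a comparison where more passed) and for transcription factors, and other members by range. Genes of the pathway lists were named where they had one of the 3 smallest adjusted p in a comparison, beside Ifng, Ifnar1, Ifnar2, Ifngr1, Ifngr2, Irf1 and Socs1. One further gene that this rule names is not reported here. Ifnk and Ifna2 were named after their counts were seen.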

Additional observations from a re-analysis of the deposited data

Results flagged for a closer look

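Ifi27l2a differed between spleen and culture in its MitoPositive over MitoNegative log2 fold change, which was -0.75 ± 0.14 in spleen at d7 and 0.11 ± 0.10 in culture at d0. The difference was -0.87 ± 0.19 (edgeR quasi-likelihood interaction term, adjusted p = 0.00533). It did not pass without a replicate block (adjusted p = 0.0742) or under the other map of the culture hashtags (adjusted p = 0.219), and which map is right is not settled by the labels. MitoPositive was lower than MitoNegative in all 3 donors in spleen, but without donor 1 the spleen difference did not pass. In the d7 library of donor 1 both hashtag callers gave the same call to 34.9% of barcodes. At d7 the arms were in different recipient mice, so an effect of the recipients and one of the arm cannot be told apart. Day, organ and library differ together between these samples and cannot be told apart.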

How the results depend on the processing

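Of 133 recomputed counts of members, 103 stayed within 1.5 times the reported count, and of 1570 recomputed values of called members, 1461 remained called, 109 kept their direction without passing and 0 changed direction. The organ and spleen-over-culture counts were the steadier ones. Tumor over spleen in MitoNegative cells gave 17 members with cells thinned to 2000 UMIs, and 23 to 27 with 1 replicate left out. For the arms in culture, where 1 member passed, DESeq2, thinning and leaving out cells with RNA of other cell types each gave 2, no filter gave 5, the replicate block 6, the other hashtag map 0, and leaving out 1 replicate 0 to 3. For the arms in the tumor, where 0 passed, no filter gave 2 and HTODemux 1. For the arms in the spleen, where 1 passed, no filter gave 5, thinning and leaving out cells with RNA of other types 2 each, spleen samples alone 3, no replicate block 0, and leaving out 1 replicate 0 to 3. The tumor minus spleen difference gave 1 with no filter. The spleen minus culture difference, where 1 passed, gave 2 with DESeq2 size factors, with DESeq2 and without the interferon-high cluster, 4 with no filter, 3 with thinning and without cells with RNA of other types, 0 without the replicate block and under the other hashtag map, and 1 to 4 with 1 replicate left out. The causes were not tested. Shares of all genes were given for the main fits only. Counts of members under the alternatives therefore show how steady the calls were and are not to be read against those shares. Leaving out the interferon-high cluster, the tumor sample of 30 cells or the spleen sample of 49 cells was chosen after seeing the data. In those 2 samples, depth limits members below a few CPM.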
